A study of Arabidopsis thaliana with 6 samples.

Results

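The Aux/IAA repressors described here are 10 genes of Arabidopsis thaliana, IAA1, IAA2, IAA3, IAA5, IAA6, IAA7, IAA14, IAA17, IAA19 and IAA29, taken by gene identifier, with earlier results of these data known. All 10 were among the 19955 genes of the authors' deposited table. RNA was sequenced from whole seedlings, 7 days old and of accession Col-0, grown at 22 °C with 16 h of light and 8 h of dark and given no treatment. By the labels, 3 libraries are wild type (WT) and 3 come from the mir163 mutant, and nothing more is said of its allele. The table holds 1 FPKM value per genotype (fragments per kilobase, relative to all mapped fragments). A spread between replicates can therefore be given for no gene, and the depth is unknown.

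Aux/IAA proteins are short-lived nuclear repressors of the auxin response. They bind auxin response factors (ARFs) on the promoters of auxin-regulated genes and recruit corepressors of the TOPLESS family. Auxin joins an Aux/IAA protein to an F-box receptor of the TIR1/AFB family, the repressor is ubiquitinated and degraded, and the ARFs are released. Many Aux/IAA genes are themselves switched on by auxin, which closes a feedback loop and has made them common readouts of auxin response. Their mRNA level in seedlings reports transcript abundance and not the amount of repressor protein, which is set largely by degradation.

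None of the 10 Aux/IAA transcripts differed by 1.5-fold between mir163 and WT, and none passed a test. Over all genes tested, 3.33% were at least 1.5-fold lower, 3.55% at least 1.5-fold higher, and 0% passed after Benjamini-Hochberg adjustment. In mir163, 6 of 10 had a lower FPKM (IAA3, IAA7, IAA14, IAA17, IAA19 and IAA29) and 4 had a higher one (IAA1, IAA2, IAA5 and IAA6). Over all 19264 genes tested, those with an FPKM of at least 1 in a genotype, 48.7% had a lower value and 51.3% a higher one. The median change of the 10 genes on the log2(FPKM + 1) scale was -0.18, beside 0.0064 for all genes tested. Of the 10, 2 had a log2 ratio between the 25th and 75th percentiles of all genes tested, -0.14 and 0.14. This is a smaller share than the range holds of all genes by construction. Set against genes of like level, 20% of the 10 lay outside the 10th to 90th percentiles, the same share as of all genes. The summed FPKM of the 10 was 536 in WT and 473 in mir163, 11.8% lower. Most of that difference lay in the abundant genes IAA17 and IAA7. The sum over all 19955 genes was also lower in mir163, at 1.137e+06 in WT and 1.037e+06 in mir163. A lower sum was thus also seen over the whole table, but such a sum is weighted towards the most abundant transcripts. The median log2 ratio over all genes tested was 0.0074, so a typical gene was not lower. In a whole-seedling sample, fewer cells of a type and less RNA per cell cannot be told apart.

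After Benjamini-Hochberg adjustment of the authors' p-values across the 19264 genes, 0 of 10 Aux/IAA genes were called at 0.05, where 0% of all genes were called, and each of the 10 had an adjusted p of 0.9996. The lowest Benjamini-Hochberg adjusted p of any gene was 0.0876, which PXMT1 had at an unadjusted p of 5e-05 in the authors' deposited table. A count of 0 of 10 is thus no result about the Aux/IAA genes. At an unadjusted p under 0.05 in the authors' deposited table the count was again 0 of 10, where 0.997% of all genes passed, 0.327% lower and 0.67% higher. No Aux/IAA gene of the 10 reached a 1.5-fold difference in either direction. Of all genes, 3.33% were at least that much lower and 3.55% that much higher. These counts of 0 of 10 are near the shares over all genes and are no result about the Aux/IAA genes either. The lowest p among the 10 in the authors' deposited table was 0.297, for IAA29, and the highest was 0.956, for IAA2. A p that misses the threshold does not show that the levels were equal.

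The state of the mutated locus checks the labels of the columns. MIR163 (AT1G66725) had FPKM values of 20.5 in WT and 0.0726 in the mutant, and its target PXMT1 (AT1G66700), a methyltransferase, was at 1.32 and 47.6. Neither was called over all genes. In the authors' deposited table MIR163 had an unadjusted p of 0.180, and the Benjamini-Hochberg adjusted p was 0.9996 for MIR163 and 0.0876 for PXMT1. A count of 0 called among the Aux/IAA genes was thus read from a test that did not call the mutated locus itself. Both the shoot and the root of the seedling were represented. RBCS1A, the small subunit of Rubisco, stood at 18310 in WT against 15342 in mir163, CASP1, a protein of the root endodermis, at 56.6 and 50.2, and PRP3, a proline-rich protein of root hairs, at 84.8 and 84.6. All 5 root markers had values above 0 in both genotypes, with a summed FPKM of 178 in WT against 170 in mir163.

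The levels of the 10 genes spanned a wide range, and since FPKM is per length they can be ranked. IAA7, known as AXR2, whose stabilising mutation gives a short hypocotyl and weak gravitropism, was highest, with 190 FPKM in WT and 166 in mir163. IAA17, known as AXR3, was next at 137 and 105. Together they made up 35.4% and 25.5% of the summed FPKM of the 10 genes in WT, and 35.2% and 22.3% in mir163. IAA2 and IAA3 followed, and IAA6 was lowest at 1.12 and 1.37, just above the minimum used for testing. The order was the same in both genotypes except that IAA29 stood above IAA5 in WT, at 5.38 against 5.03, and below it in mir163, at 3.79 against 5.32. IAA19 and IAA14 were nearly equal in WT, at 13.44 each. Whether neighbours in this order differ beyond replicate spread was not tested, as only 1 value per genotype was analysed here.

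**Figure D1:**
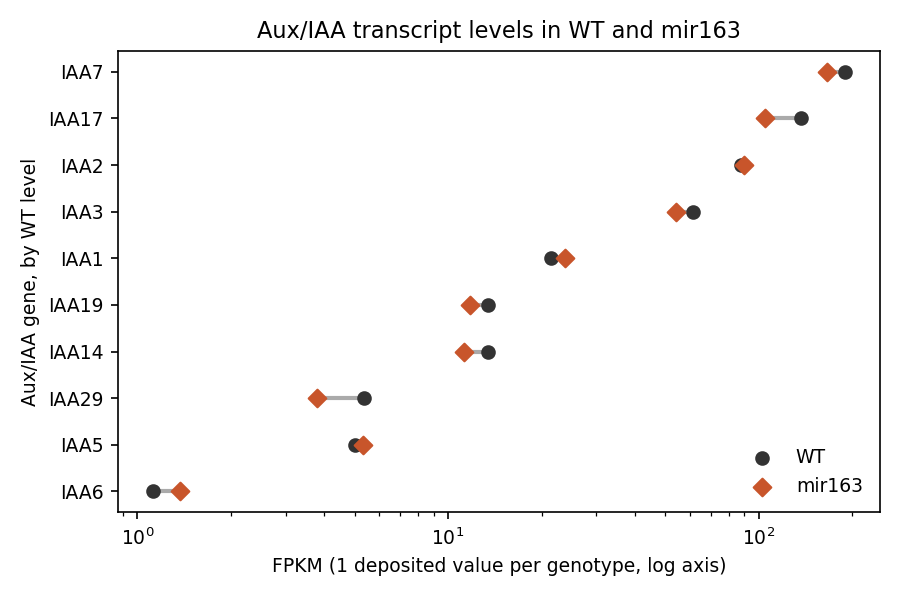
FPKM of each Aux/IAA gene on a log axis, with circles for WT and diamonds for mir163, ordered by WT level; each symbol is the authors' single value for that genotype and has no error bar. IAA7 and IAA17 lead in both genotypes, IAA6 is lowest, and the widest gap on this axis is that of IAA29, from 5.38 to 3.79.

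The IAA7, IAA14 and IAA17 repressors, a closely related group that includes IAA16, all had lower values in mir163. IAA17 (AT1G04250), whose stabilised form disturbs root hairs and gravitropism, went from 137 to 105 FPKM, which was 23.1% lower. In the authors' deposited table it had a p of 0.366 and a log2 fold change of -0.38. IAA7 (AT3G23050) was 12.4% lower, and the authors' deposited table gave a p of 0.666 and a log2 fold change of -0.19. IAA14 (AT4G14550), or SOLITARY-ROOT, which in its stable form blocks the first divisions of lateral roots, was at 13.4 in WT and 11.3 in mir163, with a p of 0.510 in the authors' deposited table. The fourth gene of the group, IAA16, lies outside the 10 and was the most abundant Aux/IAA transcript in the table, at 231 in WT and 186 in mir163. All 4 were lower, beside 48.7% of all genes tested. Their median log2 ratio was -0.29, beside 0.0074 for all genes tested, and none had an unadjusted p under 0.05.

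The group of IAA1, IAA2, IAA3 and IAA4 was split. IAA1 (AT4G14560), named AXR5 from its auxin-resistant mutant, was at 21.4 in WT and 23.8 in mir163, 10.9% higher. IAA2 (AT3G23030), whose promoter is used as an auxin reporter in roots, was nearly level at 88.0 and 89.4, the smallest relative difference of the 10. IAA3 (AT1G04240), or SHY2, which limits the size of the root meristem, was at 61.4 and 54.4. Their p-values in the authors' deposited table were 0.725 for IAA1, 0.956 for IAA2 and 0.669 for IAA3. IAA4, outside the 10 and named after its values were seen to complete the group, was at 68.0 and 61.7.

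IAA5, IAA6 and IAA19 form another related group with low to moderate levels. IAA19 (AT3G15540), or MSG2, acts with ARF7 in the bending of hypocotyls towards light, and was at 13.4 in WT and 11.7 in mir163. IAA5 (AT1G15580) was at 5.03 and 5.32, and IAA6 (AT1G52830) at 1.12 and 1.37. IAA6 was 22.1% higher in mir163, which is a difference of only 0.247 FPKM. The authors' deposited table gave p-values of 0.626, 0.892 and 0.677 for IAA19, IAA5 and IAA6.

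IAA29 (AT4G32280) had the largest relative difference of the 10. This gene is a target of PIF transcription factors, which promote elongation in shade and warmth. It stood at 5.38 in WT and 3.79 in mir163, 29.5% lower. In the authors' deposited table its log2 fold change was -0.50 with a p of 0.297. Among all genes tested, 9.07% had a larger log2 fold change in either direction. The 5 listed genes of the shade response were all lower in mir163, beside 48.7% of all genes tested. Of the 5, 0 had an unadjusted p under 0.05 in the authors' deposited table, and their median log2 ratio was -0.21. PIF5 was at 91.2 in WT against 80.7 in mir163, and PIF4 at 50.1 and 43.2. Whether any of the 5 had a part in the value of IAA29 was not tested.

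Set against genes of like level, 2 of the 10 genes lay outside the range from the 10th to the 90th percentile, a share of 20% that is also the share of all genes outside it, by construction. These were IAA29 and IAA17. In the level band from 4 to 8 FPKM, which held 3051 genes, the 10th percentile of the log2 ratio was -0.29 and the 90th was 0.31. IAA29 lay below it at -0.50, while IAA5 in the same band was at 0.08. In the band from 64 to 128 FPKM, with 1276 genes, the 10th percentile was -0.29, and IAA17 lay below it at -0.38. The other 8 genes were inside their bands, with IAA14 at -0.26 close to the lower edge. This placing describes the deposited values and is not a test.

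**Figure D2:**
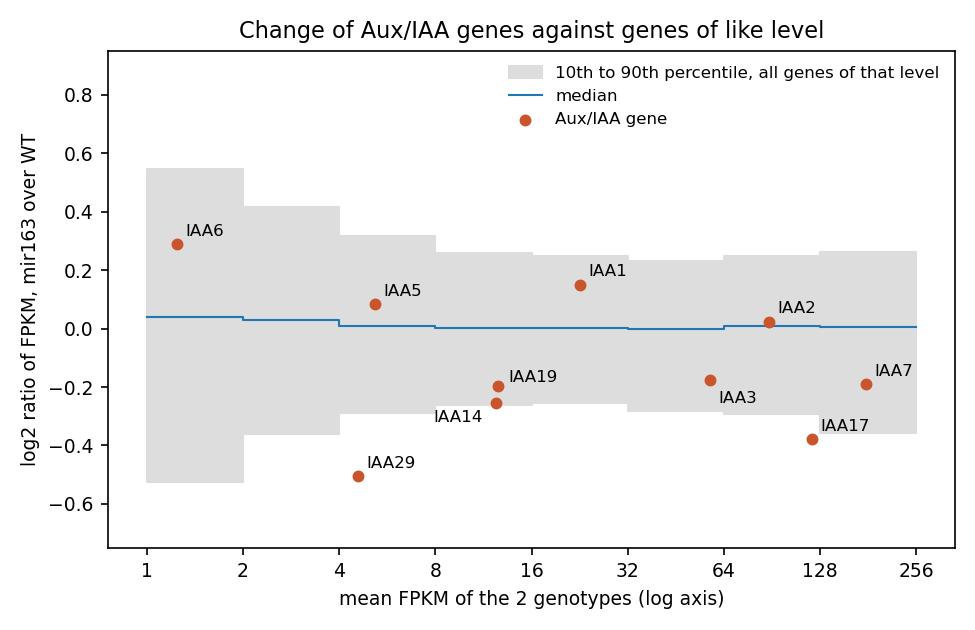
The log2 ratio of FPKM, mir163 over WT, against the mean FPKM of both genotypes on a log axis, for the 10 Aux/IAA genes; the grey band runs from the 10th to the 90th percentile of all genes tested in each level band and the line is their median. IAA29 at -0.50 and IAA17 at -0.38 lie below the band, and the other genes lie within it.

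Of the 10 genes, 6 lie in the genome as 3 neighbouring pairs, each of 1 gene from the IAA1 to IAA4 group and 1 from the IAA7 group. The members of each pair point away from each other, so that their starts face. On chromosome 1 of the TAIR10.1 build, IAA3 (1128149 to 1129689, minus strand) and IAA17 (1136078 to 1138663, plus strand) are 6388 bases apart. IAA2 (8180646 to 8182095, minus strand) and IAA7 (8194606 to 8197161, plus strand) are 12510 bases apart on chromosome 3. IAA14 (8347822 to 8350263, minus strand) and IAA1 (8360996 to 8362033, plus strand) are 10732 bases apart on chromosome 4. The annotation places 1 long non-coding RNA gene between the members of each pair.

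In all 3 pairs the log2 ratio was lower for the gene of the IAA7 group than for its neighbour. The log2 ratio of IAA14 minus that of IAA1 was -0.41, that of IAA7 minus IAA2 was -0.21, and that of IAA17 minus IAA3 was -0.20. IAA1 stood at 1.60 times the level of IAA14 in WT and 2.11 times in mir163. IAA7 was 2.16 times as abundant as IAA2 in WT and 1.86 times in mir163, and IAA17 was 2.23 and 1.94 times as abundant as IAA3. The difference within pairs was not tested, since no value per library was analysed here. It is drawn from the values already given for these genes and is not a separate observation.

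Reads of a few of these genes could be shared with others. IAA3 overlaps AT1G04230 on the other strand by 640 bases, and IAA5 overlaps AT1G15570 by 48 bases. Whether the libraries keep strand is not told by the kit's name, and reads in these overlaps cannot be assigned. AT1G04230 was at 7.26 in WT against 6.76 in mir163, and AT1G15570 at 10.09 and 11.16, so neither differed by 1.5-fold. Between the longest transcripts of the 10 genes the longest identical run was 41 bases, shared by IAA7 and IAA14.

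Auxin response factors bind the auxin response element TGTCTC and variants such as TGTCGG, and PIF factors bind the G-box CACGTG. These letters, and the evening element AAAATATCT of clock-controlled genes, were sought on both strands in the 300 bases before each annotated gene start. TGTCTC was found before 5 of the 10 genes (IAA1, IAA3, IAA5, IAA6 and IAA19), and before 13.0% of all 27443 protein-coding genes. TGTCGG was found before IAA1 and IAA5, and before 4.91% of all. The G-box was found before IAA7 and IAA19, and before 7.09% of all. No match to the evening element was found before any of the 10, and 2.79% of all genes had one. No match overlapped a match to another motif. Of the 5 genes with TGTCTC, 3 were higher in mir163 (IAA1, IAA5 and IAA6) and 2 were lower. Of the 5 without, IAA2 had a higher value and 4 had a lower one. A match is a description of letters and not of a bound site.

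**Figure D3:**
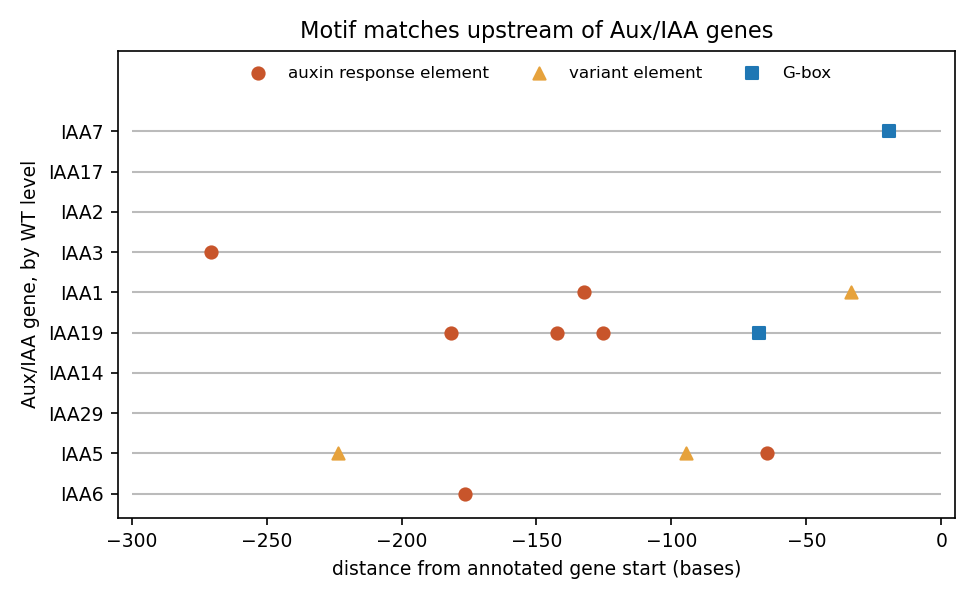
Positions of motif matches in the 300 bases before each Aux/IAA gene, in bases from the annotated start, with genes ordered by WT level. IAA19 carries 3 auxin response elements and a G-box, IAA5 carries 3 elements of both kinds, and IAA2, IAA14, IAA17 and IAA29 have none.

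The windows of IAA5 and IAA29 are shown because these genes have nearly the same level in WT, opposite directions in mir163 and unlike motif content. The pair was picked with these values known, and neither difference passed a test. Other genes go the other way: IAA19, with 3 copies of TGTCTC, was lower in mir163, and IAA2, with none, was higher. The sequences are from RefSeq, build TAIR10.1, read 5′ to 3′ on the strand of the gene, with matches to TGTCTC or TGTCGG on either strand in capitals. The IAA5 window is chr1:5366498-5366797, minus strand, and the IAA29 window is chr4:15583032-15583331, plus strand.
IAA5: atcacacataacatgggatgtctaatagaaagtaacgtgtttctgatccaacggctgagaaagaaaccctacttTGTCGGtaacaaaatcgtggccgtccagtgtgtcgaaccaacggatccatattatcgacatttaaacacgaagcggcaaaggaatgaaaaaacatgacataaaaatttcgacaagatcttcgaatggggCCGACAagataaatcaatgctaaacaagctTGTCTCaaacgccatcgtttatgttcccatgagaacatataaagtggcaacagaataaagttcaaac
IAA29: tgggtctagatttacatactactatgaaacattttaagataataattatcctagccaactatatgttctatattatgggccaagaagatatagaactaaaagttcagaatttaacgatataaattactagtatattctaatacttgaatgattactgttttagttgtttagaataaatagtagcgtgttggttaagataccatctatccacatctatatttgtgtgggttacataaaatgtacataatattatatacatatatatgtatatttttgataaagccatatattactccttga

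IAA6 and IAA19 share a stretch of promoter sequence that no other pair of the 10 genes matched in length. Over all pairs, the longest identical run in the windows was 23 bases, between IAA6 and IAA19, and the next longest was 13 bases, between IAA17 and IAA29. Around this run, 63 of 75 bases were alike when set side by side without gaps, or 84%. The stretches lie at chr1:19673769-19673843, minus strand, for IAA6 and at chr3:5263805-5263879, plus strand, for IAA19, both in TAIR10.1, and capitals mark the bases that are alike.
IAA6: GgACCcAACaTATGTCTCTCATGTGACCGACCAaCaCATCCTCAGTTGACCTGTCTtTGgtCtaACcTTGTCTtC
IAA19: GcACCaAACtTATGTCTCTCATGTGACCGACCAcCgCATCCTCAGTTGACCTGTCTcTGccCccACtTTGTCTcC

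The IAA19 stretch holds 3 copies of TGTCTC and the IAA6 stretch holds 1. The level of IAA19 in WT was 13.4 FPKM and that of IAA6 was 1.12. The log2 ratios of IAA19 and IAA6 in mir163 had opposite signs, -0.20 for IAA19 and 0.29 for IAA6, and neither passed a test.

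The mature miR163, whose primary transcript was near 0 in the mutant, was compared with the transcripts of the 10 genes. It is 24 bases long and lies at chr1:24884359-24884382, plus strand, and is printed here as DNA from RefSeq, build TAIR10.1, with the seed, bases 2 to 8, in capitals.
miR163: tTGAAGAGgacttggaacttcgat

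No Aux/IAA transcript of the 10 had a stretch close to its complement. The best stretch in each gene differed from a perfect complement by 7 to 9 bases, counting mismatches and gaps. The closest was in IAA14, with 7 differences, and 28.2% of all protein-coding genes had 7 or fewer. By the same count PXMT1 had 1 difference, and only 2 of 27444 genes reached that.

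The rest of the Aux/IAA family and of the auxin pathway gave no gene at an unadjusted p under 0.05, though some, IAA32 among them, differed by more than 1.5-fold. The list of other auxin genes holds 79 genes besides the 10, of which 71 were in the table and 68 were tested. Of these, 25 were higher in mir163 and 43 lower, where 48.7% of all genes tested were lower. That share is also the background for the counts of each list that follows. The median change of the 68 was -0.05 on the log2(FPKM + 1) scale, beside 0.0064 for all genes tested. Of the 68, 0 had an unadjusted p under 0.05 in the authors' deposited table. Of the 19 other Aux/IAA genes, 15 were tested, and 7 were higher and 8 lower, with a median change of -0.05 on that scale. IAA16 and IAA9 were the most abundant, IAA9 at 174 in WT and 180 in mir163. IAA32, named after its values were seen, was at 0.0829 in WT and 1.95 in mir163. It was tested only through its mir163 value, and its p in the authors' deposited table was 0.442.

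Receptors and corepressors mostly had slightly lower values. Of the 6 TIR1/AFB receptors, 4 were lower and 2 higher, with a median change of -0.11 on the log2(FPKM + 1) scale. TIR1 was at 51.7 in WT against 46.3 in mir163, and AFB5 at 38.1 and 41.2. All 5 TOPLESS corepressors were lower, beside 48.7% of all genes tested, with a median change of -0.10. TPL itself was at 62.2 and 50.9, and TPR4 at 28.6 and 27.6. The 15 ARFs were 9 lower and 6 higher, with a median of -0.03. ARF2, a repressing ARF, was at 76.6 and 75.1, and ARF1 at 32.01 and 29.95.

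Among the lists of other auxin genes, the GH3 enzymes, which conjugate auxin to amino acids, had the lowest median change. Of 6 tested, 4 were lower, with a median change of -0.22 on the log2(FPKM + 1) scale, and 0 passed. GH3.5 was at 51.3 in WT and 28.3 in mir163, 44.8% lower, with a p of 0.0584 in the authors' deposited table. GH3.6 was at 53.7 and 39.8, with a p of 0.326. LBD16, a lateral root regulator and the only LBD gene of 3 that was tested, was at 1.54 and 1.65.

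Genes of auxin supply also gave 0 at an unadjusted p under 0.05. Of 8 synthesis genes tested, 5 were lower and 3 higher, with a median change of -0.09. TAA1, the aminotransferase that starts the main route, was at 12.9 in WT against 14.0 in mir163, and its homologue TAR2 at 10.7 and 11.4. YUC9, a flavin monooxygenase of the second step and named after its values were seen, was at 1.47 and 0.569, with a p of 0.0608 in the authors' deposited table. Of 12 transport genes, 8 were lower and 4 higher, with a median of -0.03. The efflux carrier PIN3 was at 137 and 93.6, and the influx carrier AUX1 at 104 and 82.9.

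**Figure D4:**
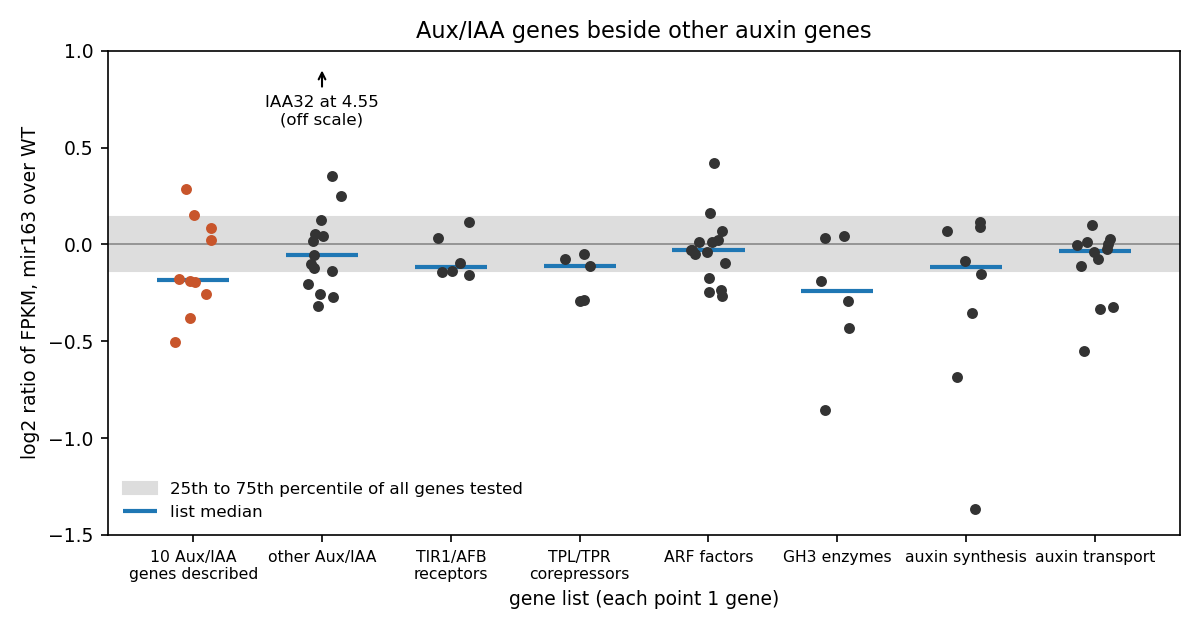
The log2 ratio of FPKM, mir163 over WT, for each gene tested in 8 lists of auxin genes; each point is 1 gene, blue bars are list medians and the grey band runs from the 25th to the 75th percentile of all genes tested, -0.14 to 0.14. The 10 Aux/IAA genes range from -0.50 to 0.29. Inside the band lie 2 of the 10, a smaller share than it holds of all genes by construction. The lowest point is YUC9, and IAA32 is off the scale.

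Of the clock and tissue marker genes listed, only the 7 of the evening phase had an unadjusted p under 0.05 in the authors' deposited table. These 7 were all higher in mir163, and 0 passed after adjustment over all genes, with a summed FPKM of 30.8 in WT against 135 in mir163. The morning genes CCA1 and LHY had a summed FPKM of 222 and 205. The shoot markers RBCS1A and LHCB1.3 were both lower in mir163, by 13.4% in summed FPKM, with p-values of 0.921 and 0.895 in the authors' deposited table. Of the 5 root markers, 3 were lower and 2 higher, with a median change of -0.0032 on the log2(FPKM + 1) scale. Whether these had a part in the values of the Aux/IAA genes was not tested.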

How the data were processed

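TAIR10, Cufflinks, TopHat and bcl2fastq 2.17.1.14 are named, without roles, in the submitters' processing notes. Per the file headers, the authors' deposited values are FPKM, 1 per genotype, with an unadjusted p-value and a log2 fold change. The sources used here do not give how libraries were combined or which test gave the p-value.

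The members and gene lists were chosen with earlier results of these data known. limma on values per library had been planned and could not be fitted with 1 value per genotype, so Benjamini-Hochberg adjustment was applied to the authors' p-values over 19264 genes with an FPKM of at least 1 in a genotype, at 0.05. Named genes are the 10 members, MIR163, PXMT1 and, per list, those at p under 0.05 or else the 2 most abundant; of the evening clock genes only the sum is given, and IAA4, IAA32 and YUC9 were added after values were seen. Loci and sequences come from RefSeq TAIR10.1, which all 112 listed identifiers matched. The adjustment was tested on simulated data. Python 3.11.15, numpy 2.4.6, pandas 2.3.3, matplotlib 3.10.9 and edlib 1.3.9 were used.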

Additional observations from a re-analysis of the deposited data

How the results depend on the processing

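No paired analysis was possible because each genotype has only 1 FPKM value in the table, and leaving out each library was not run for the same reason. Median-ratio scaling divided the mir163 values by only 1.005. That factor could not reverse any of the 10 directions, since even the ratio of IAA2, the one nearest 1, was 1.016. Each of the 10 Aux/IAA genes kept its direction under median-ratio scaling and under quantile normalization, with 6 lower and 0 past 1.5-fold in both. Their median change was -0.18 under median-ratio scaling, -0.17 under quantile normalization, -0.18 and -0.15 with pseudocounts of 0.1 and 5, and -0.18 over the 9 genes with an FPKM of at least 5 in a genotype. After Benjamini-Hochberg adjustment of the authors' p-values, 0 Aux/IAA genes and 0 of all genes were called with no filter and at that stricter minimum. At an unadjusted p under 0.05 the counts were 0 and 192. Other scalings leave the authors' p-values as they are, since these cannot be recalculated. Without values per library, a difference of the size seen for IAA29 or IAA17 cannot be set against replicate error.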
